A study of Mus musculus with 6 samples.

Results

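The genes described here are 36 genes of the cell cycle and DNA replication, chosen by name, of 19938 annotated genes with a value on the arrays. By role they are 10 replication genes, 12 mitosis genes, 9 cyclin, kinase and E2F genes of G1 and S phase entry, and 5 inhibitors. A value was available for 34 of them, from the brightest probe set naming that gene only. Ccnb1 and Cdkn1a were not analysed here, the latter because its probe set also names another gene.

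The cells were Cxcl12-abundant reticular (CAR) cells, marrow stroma named for its abundant Cxcl12, a chemokine that holds blood progenitors in the marrow. Their RNA was read on Affymetrix mogene ST arrays. All samples came from C57BL/6 mice aged 7 weeks with the genotype Dmp1-Cre Cxcl12-gfp/+, and the cells were sorted by flow cytometry from marrow of femur and tibia. The 2 groups were CAR cells targeted by Dmp1-Cre and CAR cells not targeted by it, with 3 arrays each. A sample held the cells of 1 mouse. The study names 3 mice for both populations, without saying which arrays came from the same mouse. Both groups carried the Cre and the gfp allele, so they differ by sort gate and not by genotype. The Cre is expressed from Dmp1 regulatory sequence, which is active late in the bone lineage, in mature osteoblasts and osteocytes. Recombination by Cre is permanent. How targeting was read in the sort is not given in the sources used here.

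A cell enters the cycle when D-type cyclins with Cdk4 and Cdk6, and then E-type cyclins with Cdk2, phosphorylate the retinoblastoma protein and release E2F factors, which switch on the replication genes. Cyclin A and cyclin B with Cdk1 then drive mitosis, and the genes of that step are read late in the cycle through a separate promoter element. Inhibitors of the Cip/Kip family (Cdkn1a, Cdkn1b, Cdkn1c) and the Ink4 family (Cdkn2c) hold the kinases in check, and adult CAR cells are known as a stromal population that divides rarely.

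The promoters of replication and mitosis members differed in the elements they held, and the stretches below were chosen because they belong to the genes that differed most between the groups or that mark each class. RefSeq promoter windows (GRCm38.p6, 250 bases before to 50 after each annotated start) were matched by symbol for 28 of the 36 members. They were searched on both strands for 3 elements. The first was TTTGAA, the core of the cell cycle genes homology region (CHR) of late cell cycle promoters. The others were the CCAAT box, letters CCAAT, and the E2F words TTTCCCGC, TTTCGCGC, TTTGCCGC and TTTGGCGC. Capitals below mark every match in the last 150 bases before the start, 5′ to 3′ on the gene's strand. Cdk1 (chr10:69352913-69353062, minus strand), Top2a (chr11:99024190-99024339, minus), Mki67 (chr7:135716380-135716529, minus) and Cdc20 (chr4:118437344-118437493, minus) stand for mitosis. Mcm6 (chr1:128359706-128359855, minus) stands for replication, Cdk2 (chr10:128705052-128705201, minus) for S phase entry and Cdkn1b (chr6:134920251-134920400, plus) for the inhibitors.
Cdk1: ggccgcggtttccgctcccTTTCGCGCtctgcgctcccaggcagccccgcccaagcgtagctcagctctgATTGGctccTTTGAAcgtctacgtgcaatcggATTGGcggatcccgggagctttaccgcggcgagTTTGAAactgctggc
Top2a: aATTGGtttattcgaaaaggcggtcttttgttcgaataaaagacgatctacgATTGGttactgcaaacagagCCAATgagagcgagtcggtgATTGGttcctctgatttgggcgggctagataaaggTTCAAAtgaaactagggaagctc
Mki67: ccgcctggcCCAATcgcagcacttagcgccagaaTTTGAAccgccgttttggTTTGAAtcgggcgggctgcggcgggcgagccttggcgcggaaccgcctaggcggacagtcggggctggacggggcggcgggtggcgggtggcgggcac
Cdc20: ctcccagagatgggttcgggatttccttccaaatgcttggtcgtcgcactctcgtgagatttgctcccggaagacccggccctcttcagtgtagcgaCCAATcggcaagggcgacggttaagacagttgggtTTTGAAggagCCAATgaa
Mcm6: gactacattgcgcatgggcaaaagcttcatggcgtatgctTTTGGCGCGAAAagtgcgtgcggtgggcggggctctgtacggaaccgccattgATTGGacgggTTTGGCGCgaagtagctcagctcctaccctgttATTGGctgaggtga
Cdk2: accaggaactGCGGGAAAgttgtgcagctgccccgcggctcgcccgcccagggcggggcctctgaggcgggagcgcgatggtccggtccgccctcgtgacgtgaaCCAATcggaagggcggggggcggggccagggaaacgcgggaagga
Cdkn1b: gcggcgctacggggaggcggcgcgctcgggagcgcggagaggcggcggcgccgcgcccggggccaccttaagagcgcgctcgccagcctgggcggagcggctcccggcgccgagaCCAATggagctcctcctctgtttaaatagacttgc

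The CHR core was in the windows of 8 of the 10 mitosis members with a window (80.0%), against 20.2% of all 27025 genes with a window. Only Bub1 and Ccnb1 of those 10 lacked these letters. Counted from the start, its first base was at -71 and -15 in Cdk1, at -179 and -23 in Top2a, at -18 in Cdc20 and at -116 and -98 in Mki67. Of 9 replication members with a window 1 held it, Mcm2, and of the 6 G1 and S entry members and 3 inhibitors with a window 0 did. The E2F words showed the reverse order, in 4 of 9 replication members (Mcm3, Mcm5, Mcm6 and Mcm7, 44.4%) and 1 of 10 mitosis members (Cdk1), against 2.6% of all genes. Of the other members with a window, Cdk2 alone held an E2F word. In Mcm6 the words at -110 and -106 overlap on opposite strands. The CCAAT box, at 41.1% of all genes, was in all 10 mitosis members with a window and in 8 of 9 replication members. In 52 further mitosis genes the CHR core was in 35 (67.3%), and in 39 further replication genes an E2F word was in 15 (38.5%). Further genes of G1 and S entry did not follow the members of that class: of 13, the CHR core was in 7 (53.8%) and an E2F word in 6 (46.2%). A match describes letters in a window and is not a measured binding site.

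**Figure D1:**
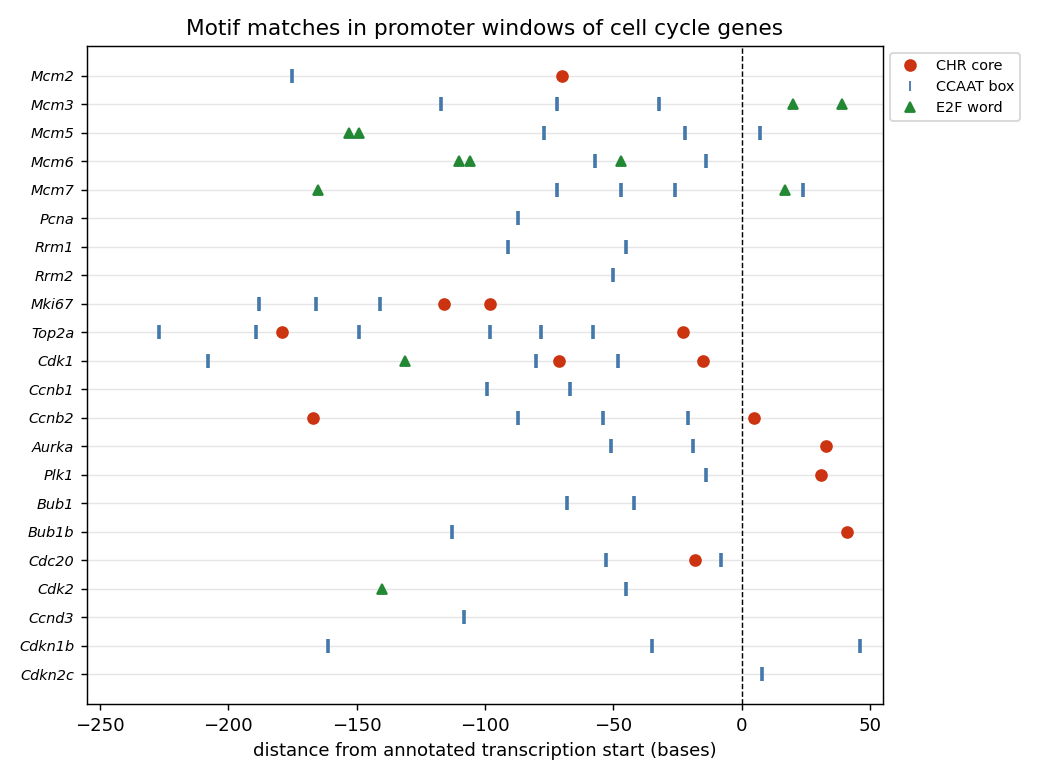
Position of CHR core, CCAAT box and E2F word matches (first base, in bases from the annotated start) in the promoter windows of the 22 members with at least 1 match; Mcm7 has 2 windows drawn together. The CHR core lies in windows of mitosis genes apart from that of Mcm2, and E2F words lie mostly in Mcm genes.

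The cells carried the identity in their label. All 10 CAR cell markers lay at or above the 96.1 percentile of all annotated genes by mean log2 intensity, among them Cxcl12, Lepr and Adipoq. Dmp1 was at 9.89 to 11.28 on the targeted arrays and at 6.91 to 7.51 on the non-targeted ones. Array medians ran from 79.4 to 87.5 on the linear scale. Both replicate 1 arrays were high in Xist, at 11.31 and 12.00 against 5.64 to 5.88 on the other 4 arrays. Kdm5d ran the opposite way, at 6.02 and 5.96 on the replicate 1 arrays against 6.82 to 7.79 on the other 4. The arrays of 1 number thus share their class in both genes. Targeted replicate 1 stood apart in markers of other cells. The summed intensity of 12 neutrophil precursor genes was 1183 there, against 8042 and 11433 for targeted replicates 2 and 3 and 9048 to 13986 in non-targeted cells. That of 6 osteoblast genes was 17552 there, against 10536 and 12260 for targeted replicates 2 and 3 and 8656 to 10760 in non-targeted cells. The osteoblast genes are 6 of 10 listed, and Bglap, Bglap2, Runx2 and Spp1 were not analysed here. Values are given below with and without that array where it bears on them.

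By level, the mitosis members were the dimmest class and the inhibitor Cdkn1b the brightest member. Probe sets differ in how strongly they respond, so a percentile places a signal among all signals on the array and gives no order of abundance. The 11 mitosis members with a value had a median percentile of 35.5, with Bub1 lowest, then Bub1b at 14.8, and Ccnb2 at 66.4 at the top. For comparison, 9 T and NK cell markers, genes of cells outside the sort, had a median percentile of 24.3, and 9 endothelial markers one of 30.9. Lists of other marrow cells lay at or above the mitosis median, with progenitor and leukocyte genes at 36.2, B cell precursor at 36.4, macrophage at 40.6, erythroid at 44.9, megakaryocyte at 51.3 and neutrophil precursor genes at 64.3. Mki67, the antigen by which dividing cells are counted, was at the 34.7 percentile, and Top2a, the topoisomerase of dividing cells, at 35.5. The replication members had a median percentile of 56.0, from 23.8 for Rrm1 to 96.8 for Pcna. The G1 and S entry members reached higher, with a median of 69.5. Ccnd2 was at 97.5, Cdk4 at 95.3 and Ccnd3 at 84.1, all 3 being genes of the cyclin D kinases. Cdkn1b, which encodes p27, was at 99.3, in the range of the CAR cell markers, and Cdkn1c, which encodes p57, was at 84.7.

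**Figure D2:**
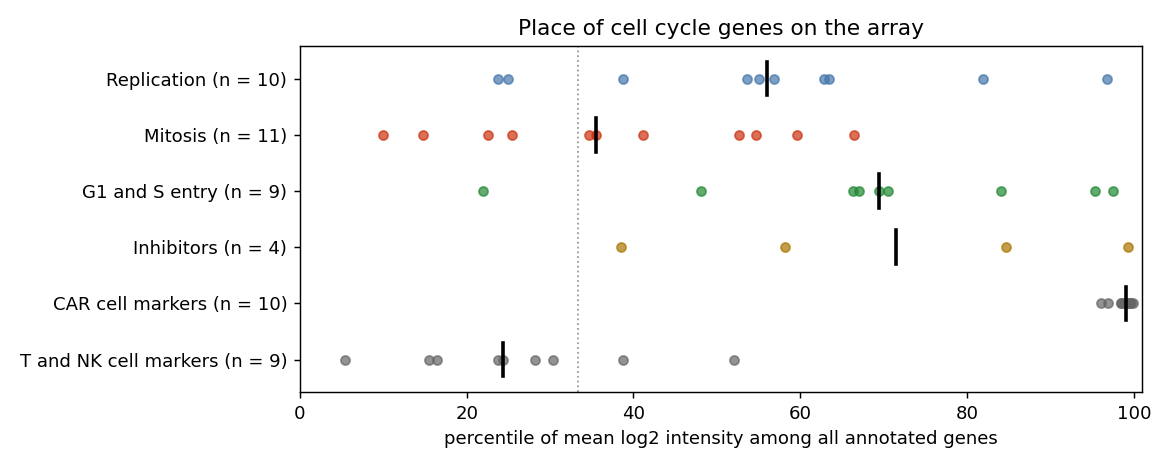
Percentile of each gene's mean log2 intensity over the 6 arrays among all 19938 annotated genes, by class, with CAR cell and T and NK cell markers for reference; points are genes, black bars medians and the dotted line the limit below which genes were left out as dim. Mitosis genes sit low, with a median of 35.5, while Cdkn1b sits at 99.3 among the CAR cell markers.

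The lowest 33.3% of genes by mean, up to 6.00 on the log2 scale, were set aside as dim and not tested. This removed 7 members: Mcm3, Rrm1, Ccna2, Plk1, Bub1, Bub1b and Ccne2. The other 27 were tested among 13292 genes with limma, as targeted minus non-targeted, with Benjamini-Hochberg adjustment over all genes tested and a threshold of 0.05. None of the 27 passed. The smallest adjusted p of a member was 0.824. Over all genes tested 0 passed in either direction (0.0% each), and 634 (4.77%) had an unadjusted p under 0.05, while the members with such a p were Cdkn1b, Cdk2, Cdk1 and Rb1. Cdk1 and Rb1 passed the dim limit only through the group in which they were higher. The 95% intervals of the 27 reached 0.33 to 1.01 on either side of the estimate on the log2 scale. They are not adjusted for the number of genes, so differences of that size and larger ones could be missed. In the same fit Dmp1 differed by 3.28 (95% interval 2.41 to 4.15) and did not pass (limma, adjusted p = 0.384). The labels call the arrays of a group biological replicates, and the fit treated all 6 as independent. With the replicate number as a block 0 members passed either. In a bulk sample fewer cycling cells and less RNA per cycling cell cannot be told apart.

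**Figure D3:**
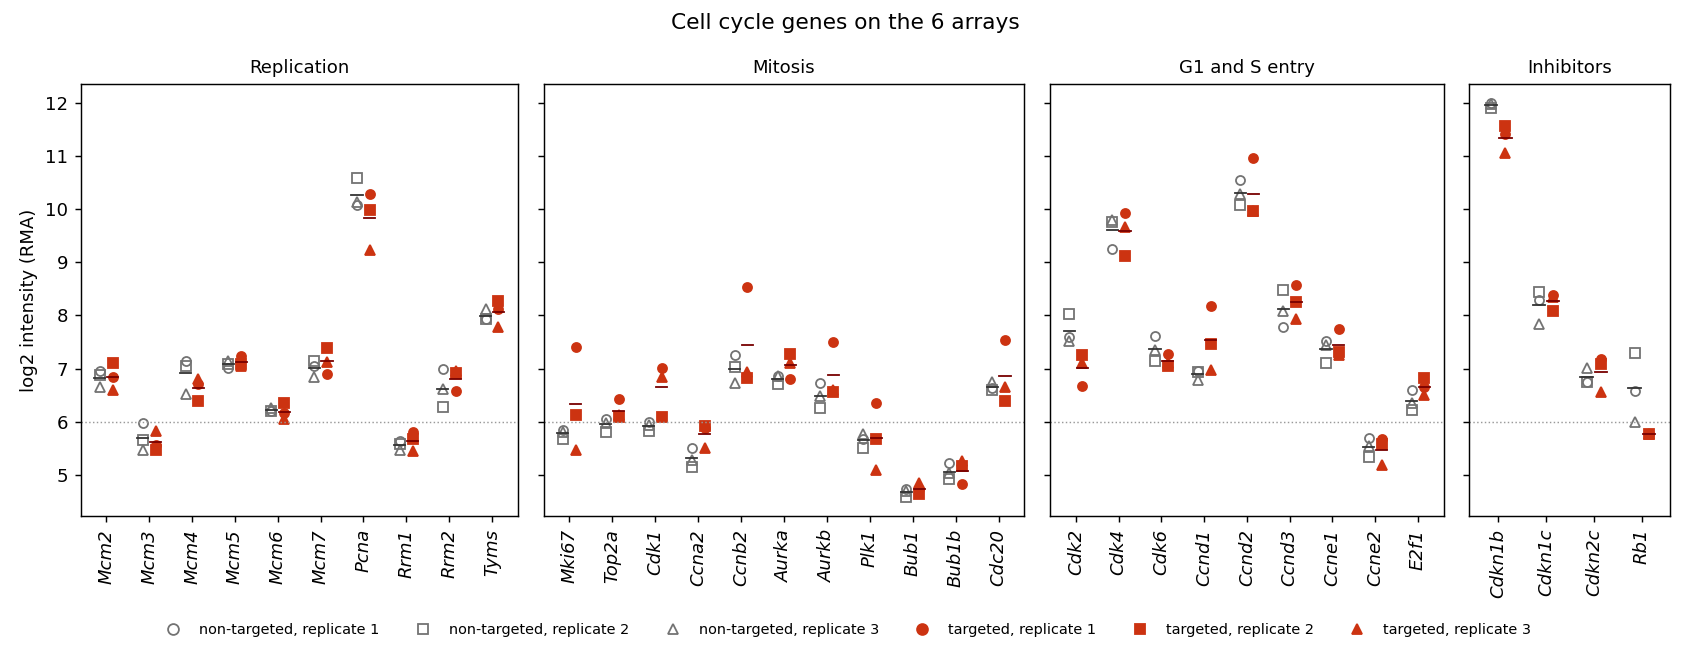
Log2 intensity of the 34 members with a value on each of the 6 arrays, by class; grey open symbols are non-targeted and red filled symbols targeted arrays, the shape gives the replicate number, short lines are group means and the dotted line is the dim limit of 6.00. Cdkn1b lies lower on all targeted arrays, and targeted replicate 1 (circles) lies highest for Mki67, Ccnb2, Aurkb and Cdc20.

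Among the inhibitors, Cdkn1b and Rb1 were lower on all 3 targeted arrays and Cdkn1c and Cdkn2c overlapped. Cdkn1b, whose product p27 binds and blocks cyclin E and cyclin A kinases, was at 11.41, 11.56 and 11.06 on targeted replicates 1 to 3 and at 11.99, 11.91 and 11.98 on the non-targeted ones. The non-targeted arrays lay within 0.08 of each other and all targeted arrays lay below them. The means were 11.34 ± 0.26 and 11.96 ± 0.05 (SD, n = 3 each), a log2 difference of -0.62 (SE 0.17, 95% interval -1.02 to -0.22, 1.54-fold), which did not pass (limma, adjusted p = 0.824). On the same arrays all 10 CAR cell markers were lower in targeted cells, with a median difference of -0.29. Of these 10, Lepr and Grem1 had non-overlapping arrays, against 5.76% of all genes tested with lower non-overlapping values. The 6646 brightest genes on the array include Cdkn1b and all 10 markers. Of those 6646, 40.8% were higher in targeted cells, with a median difference of -0.06. The part of these shifts in the Cdkn1b value was not tested. A dimmer probe set of the gene showed the same order, at 6.32, 6.00 and 6.24 against 6.93, 7.15 and 6.70, a difference of -0.74. The difference was -0.59 between the replicate 1 arrays and -0.64 among the 4 arrays low in Xist, and it ran from -0.73 to -0.48 when each array was left out.

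Rb1, the retinoblastoma gene, was at 5.76, 5.76 and 5.77 on the targeted arrays and at 6.58, 7.30 and 5.99 on the non-targeted ones. The targeted values were nearly equal and below the dim limit of 6.00, while the non-targeted ones were spread. The log2 difference was -0.86 (SE 0.30, 95% interval -1.57 to -0.16; limma, adjusted p = 0.954) and was -0.52 without non-targeted replicate 2. Cdkn1c was at 8.27 ± 0.16 against 8.19 ± 0.31 and Cdkn2c, an inhibitor of Cdk4 and Cdk6, at 6.93 ± 0.33 against 6.84 ± 0.15 (SD, n = 3 each). Both overlapped between the groups. Non-overlapping arrays with lower targeted values were thus found for 2 of the 4 inhibitors with a value. The share was 4.32% of all annotated genes and 5.76% of all genes tested. Rb1 passed the dim limit only through its non-targeted arrays.

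Of the genes of G1 and S phase entry, Cdk2 was lower and Ccnd1 higher on all targeted arrays. These were 1 gene each way of the 8 tested, against 5.76% of all genes tested with lower and 3.32% with higher non-overlapping values. Cdk2, the kinase partner of cyclins E and A, was at 6.67, 7.26 and 7.10 on targeted and at 7.59, 8.03 and 7.51 on non-targeted arrays. Every targeted value lay below every non-targeted one. The log2 difference was -0.70 (SE 0.22, 95% interval -1.21 to -0.19, 1.62-fold; limma, adjusted p = 0.931). It was -0.92 between the replicate 1 arrays and -0.59 on the Xist-low arrays.

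Ccnd1, the cyclin D1 gene that growth signals induce, was at 8.18, 7.46 and 6.97 against 6.96, 6.94 and 6.78. The groups were separated by 0.01 at their nearest arrays, and targeted replicate 1 was the highest. The difference was 0.64 (95% interval -0.03 to 1.32; limma, adjusted p = 1.0) and 0.32 without that array.

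The other cyclin D genes and their kinases were among the bright members and did not separate. Ccnd2 was at 10.96, 9.96 and 9.96 against 10.55, 10.07 and 10.29, and its difference of -0.01 (95% interval -0.69 to 0.67) changed sign under quantile and cyclic loess scaling. Cdk4 was at 9.93, 9.12 and 9.67 against 9.24, 9.76 and 9.80, a difference of -0.02 (95% interval -0.61 to 0.57) that changed sign under the same scalings. For both genes targeted replicate 1 held the highest of the 6 values, as it did for 5 of the 9 genes of G1 and S entry. Ccnd3 was at 8.26 ± 0.32 against 8.12 ± 0.34 and Cdk6 at 7.14 ± 0.11 against 7.36 ± 0.24 (SD, n = 3 each), both with overlapping arrays. The cyclin E genes overlapped as well, with Ccne1 at 7.44 against 7.36 and Ccne2, which was dim, at 5.47 against 5.53. E2f1, a transcription factor that switches on replication genes, was at 6.66, 6.82 and 6.51 against 6.60, 6.22 and 6.36, a difference of 0.27 with overlapping arrays.

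The replication genes did not differ beyond the spread between arrays. In targeted cells 6 of the 10 members were higher and 4 were lower. The median of their log2 differences was 0.03, and it reached -0.02 in a fit that left out 1 array. Of the 10, 0 had non-overlapping arrays. Over all annotated genes 3.75% were higher and 4.32% lower in that way, so this count says little about the 10 genes. The 6 Mcm genes encode the helicase that opens DNA for copying, and their differences ran from -0.28 for Mcm4 to 0.13 for Mcm7. Mcm5 was at 7.23, 7.08 and 7.05 against 7.01, 7.08 and 7.14, a difference of 0.04 with a 95% interval of -0.29 to 0.37, the narrowest of the members tested.

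The genes of nucleotide supply behaved alike. Tyms, the thymidylate synthase gene, was at 8.06 ± 0.24 against 7.99 ± 0.11, Rrm2, a ribonucleotide reductase subunit, at 6.81 ± 0.21 against 6.62 ± 0.36, and its partner Rrm1, which was dim, at 5.64 ± 0.18 against 5.56 ± 0.08 (SD, n = 3 each). Pcna, the sliding clamp of the replication fork, was the exception in level, at 10.28, 9.98 and 9.23 against 10.07, 10.58 and 10.14. The groups overlapped, and the log2 difference of -0.43 (95% interval -1.10 to 0.23; limma, adjusted p = 1.0) was -0.13 without targeted replicate 3. A second probe set assigned to Pcna gave nearly the same value on every array (group means 9.83 and 10.25 against 9.83 and 10.26), so the 2 probe sets may read near-identical sequence and the value is uncertain as one of Pcna alone.

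**Figure D4:**
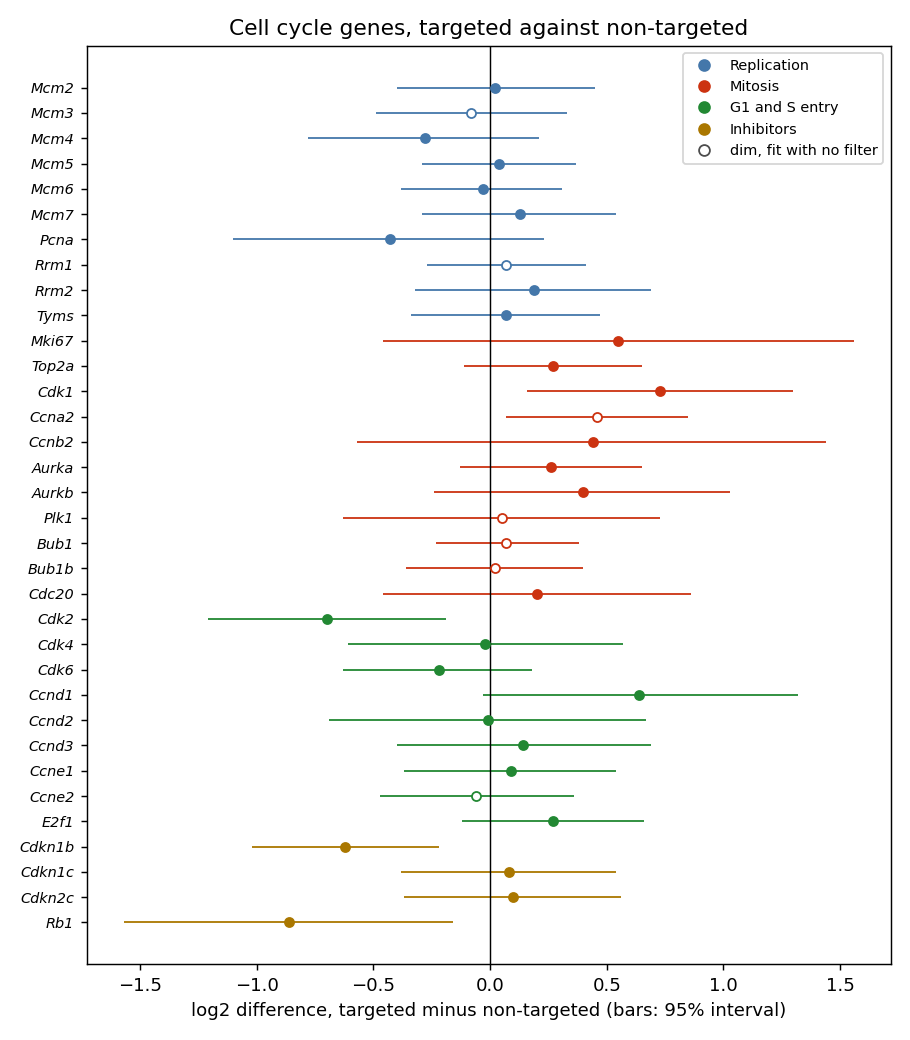
Log2 difference, targeted minus non-targeted, of the 34 members with a value, with 95% intervals of limma's moderated fit; open symbols are dim genes, whose intervals come from a fit with no filter. Mitosis genes lie to the right of 0, where only the intervals of Cdk1 and of Ccna2, which is dim, exclude 0. Cdkn1b, Rb1 and Cdk2 lie to the left with intervals that exclude 0, and no gene passed after adjustment.

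All 11 mitosis members with a value were higher in targeted cells by their means, most by little, and 3 of the 11 had non-overlapping arrays, against 3.75% of all annotated genes, and 0 were lower in that way. The median log2 difference of the 11 was 0.27, and that of all annotated genes 0.03. Mki67, Top2a and Cdk1 passed the dim limit only through their targeted arrays, so no count or median is given for the tested mitosis members alone. A small shift upward was common at this level: 72.2% of the dim genes on the array were higher in targeted cells, with a median difference of 0.06, and 57.0% of genes at the next levels up, the middle 33.3%, with a median of 0.03. All 11 mitosis members lay at these 2 levels.

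Cdk1, the kinase that starts mitosis, was at 7.01, 6.09 and 6.85 on targeted arrays and at 6.00, 5.82 and 5.93 on non-targeted ones. Its non-targeted values lay near the dim limit and all targeted values above them, 2 of them by more than 0.8. The difference was 0.73 (SE 0.25, 95% interval 0.16 to 1.30, 1.66-fold; limma, adjusted p = 0.947). It was 1.01 between the replicate 1 arrays and 0.59 on the Xist-low arrays.

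Ccna2, the cyclin A2 gene of S phase and early mitosis, was dim, at 5.89, 5.91 and 5.51 against 5.50, 5.15 and 5.28. The groups touched at 5.51 and 5.50 without overlapping. The difference was 0.46 (95% interval 0.07 to 0.85 in a fit with no filter; limma, adjusted p = 1.0). Top2a was at 6.43, 6.08 and 6.12 against 6.05, 5.81 and 5.97, a difference of 0.27 with the nearest arrays 0.03 apart, and a dimmer probe set of it differed by 0.24 with overlapping arrays.

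A further set of mitosis genes was high on targeted replicate 1 alone. Ccnb2, a cyclin B gene, was at 8.54 there and at 6.83 and 6.94 on targeted replicates 2 and 3, against 7.25, 7.02 and 6.73. Mki67 was at 7.40 there and at 6.12 and 5.46, against 5.84, 5.67 and 5.81. Aurkb, the kinase of the chromosomal passenger complex, was at 7.49 there and at 6.56 and 6.60, against 6.72, 6.25 and 6.49. Without that array the difference of Ccnb2 went from 0.44 to -0.11, that of Mki67 from 0.55 to 0.02 and that of Aurkb from 0.40 to 0.09. Cdc20, an activator of the anaphase-promoting complex, was at 7.53 there against 6.39 to 6.75 on the other 5 arrays, and Plk1, a mitotic kinase that was dim, at 6.35 against 5.09 to 5.76.

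Not every mitosis gene followed that array. Aurka, the kinase of spindle poles, was at 6.81, 7.28 and 7.11 against 6.86, 6.71 and 6.86, so targeted replicate 1 was its lowest targeted value. Bub1 and Bub1b, checkpoint kinases, were dim and differed by 0.07 and 0.02. In all, 7 of the 11 mitosis members were highest on targeted replicate 1, against 12.8% of all annotated genes. Relative to the non-targeted mean, the members' median was 0.70 on that array, 0.10 on targeted replicate 2 and 0.17 on targeted replicate 3, and it was 0.08, -0.11 and 0.02 on the non-targeted arrays. The median log2 difference of the 11 was 0.09 without that array and 0.21 among the Xist-low arrays, where 9 of 11 were higher. The medians over all annotated genes were 0.063 without that array and 0.09 on the Xist-low arrays, where 12406 of 19938 were higher.

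**Figure D5:**
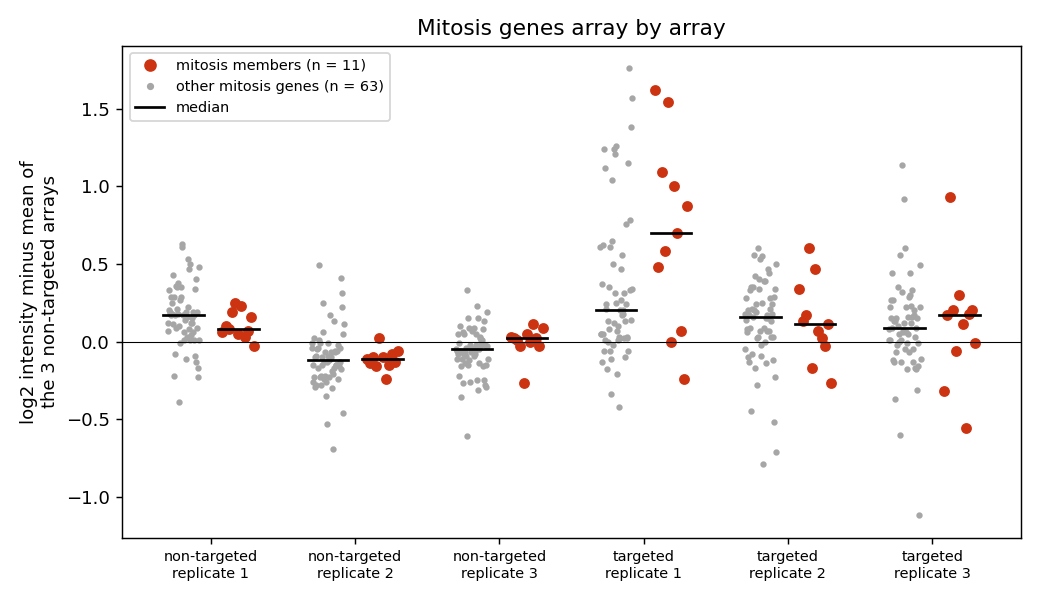
Log2 intensity of mitosis genes on each array minus the gene's mean over the 3 non-targeted arrays; red points are the 11 members, grey points 63 other mitosis genes and black bars medians. The members' median is 0.70 on targeted replicate 1 and 0.10 and 0.17 on the other targeted arrays.

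Marrow holds other cells, some of them dividing, and markers of several of their lineages were read on the same arrays. Of the erythroid markers 11 of 12 had a value and 9 were above the dim limit, Klf1 and Rhag being dim, and their summed intensity was 1345 to 2745 on targeted and 1379 to 3218 on non-targeted arrays. The highest sums were those of the replicate 1 arrays, where Car1 was at 10.90 and 11.08 against 8.74 to 9.76 on the others. Of the B cell precursor markers 11 of 12 had a value and 6 were above the limit, with Rag1, Rag2, Dntt, Cd79a and Blnk dim, and sums of 851 to 1226 against 1077 to 1919. Its brightest genes were Cd24a, at the 86.4 percentile and lower by a log2 difference of -1.03, and Vpreb1, a surrogate light chain gene, at 80.7 and -1.54, both with overlapping arrays. Of the neutrophil precursor markers all 12 had a value and Elane and Ctsg, granule proteases of early granulocytes, were dim, with sums of 1183 to 11433 against 9048 to 13986. Other genes of that list were among the brightest on the array, with S100a9 at the 98.9 percentile, S100a8 at 98.4, Camp at 96.2 and Ngp at 93.5. The sum of the list mostly reflects these bright genes, while Mpo was at 46.1 and Prtn3 at 55.4. It was therefore not read as a measure of dividing precursors. Of 12 genes of progenitors and leukocytes 5 were dim, Ptprc, Spi1, Cd34, Cd48 and Vav1, with sums of 1089 to 1195 against 1151 to 1234. The brightest of that list were Kit, at the 83.6 percentile, and Rac2, at 72.1, both with overlapping arrays. On targeted replicate 1, where the median of the mitosis members was highest, the neutrophil precursor sum was the lowest of the 6 arrays and the osteoblast sum the highest. The erythroid sum there was 2745, the highest of the targeted arrays and below the 3218 of non-targeted replicate 1. That sum was carried largely by Car1, and the list as a whole was not higher there. Relative to the non-targeted mean, the median erythroid marker was at -0.18 on targeted replicate 1, against 0.11 and -0.03 on targeted replicates 2 and 3. Of the 11 markers 0 were highest on that array and 4 were lowest. On targeted replicate 1 the B cell precursor sum was 1226, also the highest of the targeted arrays and within the non-targeted range. That sum followed Cd24a and Vpreb1. Cd24a was at 8.62 there against 7.86 and 7.05 on targeted replicates 2 and 3, and Vpreb1 at 8.33 against 6.22 and 6.98. The median of the list relative to the non-targeted mean was -0.17 there and 0.06 on both other targeted arrays. Of its 11 genes 0 were highest on targeted replicate 1 and 3 were lowest. The part of these cells in the mitosis values was not tested.

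Other genes of the pathway were read from 4 lists chosen by function. Of 47 further replication genes with a value, 25 were higher in targeted cells and 22 were lower, the median being 0.01, and of the 32 tested 0 passed in either direction. Tk1, the thymidine kinase of the salvage pathway, was at 8.61, 8.47 and 8.82 against 8.10, 7.83 and 8.12, a difference of 0.61 with separated groups (limma, adjusted p = 0.817). Pold3, a DNA polymerase delta subunit, was at 5.94, 6.47 and 5.92 against 6.87, 6.78 and 7.10, a difference of -0.80 (limma, adjusted p = 0.758). Rfc5, a clamp loader subunit, differed by -0.43 and Cdt1, a licensing factor, by 0.26. Of the 32 tested, 2 had non-overlapping arrays in each direction, against 3.32% higher and 5.76% lower of all genes tested.

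Of 63 further mitosis genes 55 were higher and 8 lower, with a median difference of 0.16, and 0 of the 29 tested passed. The other 34 were dim. Over all annotated genes 11300 of 19938 were higher, and of the dim genes on the array 72.2%. In the list 5 of 63 genes were higher and 1 lower with non-overlapping arrays, against 3.75% and 4.32% of all annotated genes. Cdca3, which helps cells enter mitosis, was at 8.21, 7.57 and 8.11 against 7.32, 6.75 and 6.85, a difference of 0.99 (SE 0.23; limma, adjusted p = 0.734). All targeted arrays lay above all non-targeted ones, and 2 of them by more than 0.7. Nusap1, a spindle protein gene, differed by 0.84 with overlapping arrays, Mybl2, a factor of late cell cycle promoters, by 0.33, and Pttg1, the securin gene, by -0.46. In this list 25 of 63 genes (39.7%) were highest on targeted replicate 1, and the medians relative to the non-targeted mean were 0.20, 0.16 and 0.09 on targeted replicates 1 to 3 and 0.17 on non-targeted replicate 1. Against non-targeted replicate 1, targeted replicate 1 was higher for 32 of the 63 and lower for 31, with a median of 0.03. Over all annotated genes 6959 of 19938 were higher in that comparison, with a median of -0.13.

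Of 17 further genes of G1 and S entry 8 were higher and 9 lower, with a median of -0.01. Cdc25a, the phosphatase that activates Cdk2, was at 6.43, 6.52 and 6.34 against 6.02, 6.15 and 5.89, a difference of 0.41, and Ccnh, a subunit of the CDK-activating kinase, differed by -0.35. Both had separated groups and neither passed (limma, adjusted p = 0.970 and 1.0). Ccnc differed by -0.81 and E2f7, a repressor of the E2F family, by 0.27, each with overlapping arrays. Of 33 further inhibitors and genes of quiescence 19 were higher and 14 lower, with a median of 0.07. Rbl2, which encodes the retinoblastoma relative p130 of resting cells, was at 7.95, 8.11 and 8.20 against 7.47, 7.94 and 7.41, a difference of 0.48 with the nearest arrays 0.01 apart, in the opposite direction to Rb1. Lin37, a subunit of the DREAM repressor complex with p130, differed by 0.52, Mxd1 by -0.48 and Ccng2 by -0.37. None of the tested genes of these 2 lists passed.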

How the data were processed

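Gene expression of 6 samples was measured, 1 array each. The deposited values are probe set intensities on a linear scale. The submitters' processing notes name RMA and Affymetrix Expression Console 1.4, with no genome build. The intensities were turned into log2 before any step. Of 35556 probe sets 21789 named 1 gene, 1621 named several, and 12146 are unnamed here. Symbols were updated by Entrez identifier through RefSeq's GRCm38.p6 table (21698 matched). The brightest probe set per gene gave 19938 genes, and the lowest 33.3% by mean were left out as dim. The test was limma's moderated one (version 3.58.1, under R 4.3.3), two-sided, on all 6 arrays with no covariate and Benjamini-Hochberg adjustment. The procedure was tested on simulated data with planted changes and independent noise. That test does not give the size of change that could be called in these data. The number of arrays limits precision.

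Members and lists were chosen with earlier results of these data known. Named genes are the members, up to 4 tested genes with the smallest p from each list of other pathway genes, Dmp1 and marker genes; dim markers and the CAR cell markers with non-overlapping arrays were named after their values were seen. Macrophage and megakaryocyte markers had median log2 differences of 0.01 and 0.04. The labels do not tie a replicate number to a mouse, so the replicate number entered only as an alternative. Arrays of the same replicate number did not deviate together over all genes tested (correlations -0.256, -0.124 and 0.065). With 3 arrays a group that check cannot exclude that they came from the same mice. Other alternatives were the filter, scaling, variance model, probe sets and leaving out each array. A fit on the 4 arrays low in Xist was chosen after seeing the data. Figures were drawn with matplotlib 3.10.9.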

Additional observations from a re-analysis of the deposited data

How the results depend on the processing

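No member passed the threshold under any of 17 other settings or on the Xist-low arrays, the smallest adjusted p of a member being 0.166 with array weights. The count over all genes was 0 except with array weights (1 gene, Dmp1) and with the replicate number as a fixed replicate block (1 gene, Dmp1). With the replicate block as a random effect it was 0. Of the 4 class medians, those of mitosis (0.093 to 0.391 in leave-one-out fits) and inhibitors (-0.353 to -0.219) kept their sign in all 17, while those of replication (-0.023 to 0.096) and of G1 and S entry (-0.151 to 0.158) did not. The mitosis median was lowest without targeted replicate 1. Cdkn1b, Cdk2, Rb1, Cdk1, Ccna2, Top2a and Ccnd1 kept their direction in all 17.

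Some small differences changed sign. Under quantile scaling Cdk4 was at 0.035 and Ccnd2 at 0.049, and under cyclic loess at 0.064 and 0.073. With array weights Mcm5 was at -0.033, Tyms at -0.012, Cdc20 at -0.076, Ccne1 at -0.057 and Cdkn2c at -0.067. On the Xist-low arrays alone Mcm5 was at -0.048, Cdc20 at -0.151, Ccnd3 at -0.176 and Cdkn2c at -0.061. In leave-one-out fits the log2 differences ran as follows: Ccnd2 from -0.342 to 0.161, Ccnd3 from -0.019 to 0.32, Cdk4 from -0.201 to 0.206, Ccne1 from -0.064 to 0.179, Mcm2 from -0.109 to 0.154, Cdkn1c from -0.097 to 0.205, Mcm5 from -0.014 to 0.079, Ccnb2 from -0.112 to 0.742, Cdc20 from -0.138 to 0.433, Cdkn2c from -0.018 to 0.285, Tyms from -0.037 to 0.202, Mcm6 from -0.116 to 0.035. Of the dim members, which were not tested, Plk1 ran from -0.268 to 0.363, Bub1b from -0.069 to 0.153, Mcm3 from -0.197 to 0.055, Rrm1 from -0.011 to 0.171 and Ccne2 from -0.151 to 0.094. The cause was not tested. Of the members 7 were dim, and signal near background limits what their differences can show.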
